A study of Mus musculus with 38 samples.

Results

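Cdkn1a and a noncoding interval on chromosome 17 were followed in lung and forestomach of mice dosed with dibenz[a,h]anthracene (DBahA), a polycyclic aromatic hydrocarbon whose metabolites bind DNA. The features were both array probes of Cdkn1a and every probe named on the array by a chromosome 17 interval between 29.15 and 29.25 Mb of the mm9 genome, which together made 14 of the 55681 features measured. They comprised 2 Cdkn1a probes and 12 probes of noncoding intervals, and the locus was chosen from earlier results of the same arrays, in which its lung ratios were seen. For that reason the differences from control in these features are given as descriptions with standard errors and without tests.

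The animals were male MutaMouse, a transgenic strain that carries a bacterial lacZ reporter for scoring mutations, about 10 weeks old. They received olive oil alone (D0) or DBahA in olive oil at 6.25 (D1), 12.5 (D2) or 25 (D3) mg per kg body weight per day by oral gavage for 28 days, with collection of both tissues 72 h later. Lung arrays came from 5 mice at D0, D1 and D3 and from 4 at D2, and forestomach arrays from 5 mice at D0 and D1 and 4 at D2 and D3. Tissue RNA was labelled with Cy5 and hybridised against a common Cy3-labelled pool of RNA from 11 mouse cell lines, always in that orientation, so values are loess-normalised log2 ratios of Cy5 to Cy3. Forestomach mouse 18 had 2 arrays by its labels, marked rep1 and rep2, which were averaged, and for mouse 20 lung alone was analysed.

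Cdkn1a encodes p21, an inhibitor of cyclin-dependent kinases that halts the cell cycle and also binds the replication clamp PCNA. Its transcription is the textbook response to DNA damage: kinases such as ATM and ATR activate p53, p53 binds sites upstream of Cdkn1a, and the gene is induced together with Mdm2, the ubiquitin ligase that limits p53. The region beside Cdkn1a is also known for noncoding RNAs, among them lincRNA-p21 (Trp53cor1), but no probe of the array carried that RNA's name or accession, and the interval probes are reported here by position alone.

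RefSeq gives Cdkn1a 2 transcription starts in the GRCm38.p6 build, and the 250 bases before each are shown because p53 acts on DNA near this gene. The windows are chr17:29090729-29090978 and chr17:29093519-29093768, both on the plus strand and 5′ to 3′. These positions cannot be set against the mm9 positions of the intervals, and no mm9 position of Cdkn1a was at hand. The distance from Cdkn1a to the intervals is therefore not given. Capitals mark the only match, on either strand, to CATGNNNNNNCATG, in which each CATG is a core of the kind found in p53 half-sites.
Cdkn1a upstream start: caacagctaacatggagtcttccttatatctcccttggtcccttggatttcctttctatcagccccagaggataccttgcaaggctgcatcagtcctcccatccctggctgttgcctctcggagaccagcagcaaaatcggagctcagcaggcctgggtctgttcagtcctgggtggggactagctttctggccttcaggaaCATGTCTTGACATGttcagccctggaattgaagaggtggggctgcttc
Cdkn1a downstream start: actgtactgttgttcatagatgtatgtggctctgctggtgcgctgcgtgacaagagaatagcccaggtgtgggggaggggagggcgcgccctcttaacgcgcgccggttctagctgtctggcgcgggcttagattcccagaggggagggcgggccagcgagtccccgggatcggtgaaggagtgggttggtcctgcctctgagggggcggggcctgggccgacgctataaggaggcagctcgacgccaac
The match began 48 bases before the upstream start. These letters occurred in 161 of 32851 RefSeq windows of the same length (0.49%), in none of the windows of 16 other p53 target genes with an entry and in none of the 15 windows of the neighbouring genes. The window before the downstream start had 64.8% G and C against 54% for the other, and it held GGGCGG, the GC box letters, which were present in 32.7% of all windows. TATAA, searched on both strands, was found on the plus strand before the downstream start, on the minus strand before the upstream start, and in 22.8% of all windows. A match is a description of letters, and binding was not measured here.

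The first Cdkn1a probe, A_51_P363947, was named on the array by NM_007669 and was printed 10 times on each array. In lung its log2 ratios were -0.73, -1.27, -0.82, -1.25 and -0.91 in the D0 mice and 1.5, 1.02, 0.88, 1.47 and 1.09 in the D1 mice. They were 1.37, 2.07, 2.00 and 1.49 in the D2 mice and 2.20, 1.55, 1.66, 2.29 and 1.96 in the D3 mice. No treated lung overlapped a control lung: the lowest treated value stood well above the highest control value. The D2 range overlapped those of D1 and D3, whereas every D3 value was above every D1 value. Group means rose from -1.0 ± 0.25 (SD, n = 5) at D0 to 1.19 ± 0.28 (SD, n = 5), 1.73 ± 0.35 (SD, n = 4) and 1.93 ± 0.32 (SD, n = 5).

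Set against D0, the lung level of the NM_007669 probe was 4.56-fold at D1, 6.64-fold at D2 and 7.61-fold at D3. These correspond to log2 differences of 2.19 (SE 0.17), 2.73 (SE 0.18) and 2.93 (SE 0.17). Most of the difference was already present at the low dose. The step from D1 to D2 was 0.54 (SE 0.18) and that from D2 to D3 was 0.20 (SE 0.18), close to its own error. From D1 to D3 the difference was 0.74 (SE 0.17). The Cy3 channel, which held the same reference pool on all arrays, stayed between group means of 11.46 and 11.56 on the log2 scale, while the lung Cy5 means went from 9.23 to 11.73, 12.29 and 12.52. The SD between spots of the same array lay between 0.04 and 0.20 with a median of 0.08, below the SD between mice of a dose group in lung.

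The arrays lay on 5 slides that held several dose groups each, so the lung difference was also taken within slides. It ranged from 1.70 to 2.72 over the 4 slides with D0 and D1 lungs, from 2.74 to 3.34 over 3 slides at D2 and from 2.48 to 3.54 over 4 slides at D3. Every slide gave a higher treated lung.

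The second Cdkn1a probe, A_55_P1986282, was named by NM_001111099, another Cdkn1a transcript, and was printed once. Probe sequences were not at hand, so whether either probe tells these transcripts apart is unknown. Its lung log2 ratios were -0.87, -0.84, -0.53, -0.72 and -0.66 at D0 and 1.92, 1.36, 0.81, 1.58 and 1.06 at D1. At D2 they were 1.47, 1.73, 1.79 and 1.44, and at D3 2.45, 2.01, 1.74, 2.06 and 2.09. The treated and control lungs were again fully apart. In the control lungs the Cy5 signal was well above background on 1 of 5 arrays, and on every treated lung array it was.

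For NM_001111099 the log2 differences from D0 in lung were 2.07 (SE 0.16), 2.33 (SE 0.17) and 2.79 (SE 0.16), or 4.2-fold, 5.03-fold and 6.93-fold, with the control level mostly at the detection limit. In the scanner software's own log ratio, which subtracts background, they were 3.85, 4.06 and 4.61. The pair of probes followed each other over the 19 lung mice with r = 0.98, and with r = 0.682 once the dose group means were removed. Both r values are descriptions over mice that share dose groups.

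Both probes passed the rule used for calling a feature, a fold change of at least 1.5 with a limma false discovery rate (FDR) P of at most 0.05, at each lung dose, as did the 2 interval probes described below, making 4 of 14 features at D1, D2 and D3. Over all features 0.14% were called at D1, 0.264% at D2 and 0.639% at D3. The locus was chosen by these ratios, so nothing is read from that count. The median difference over all features was 0 at each dose.

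**Figure D1:**
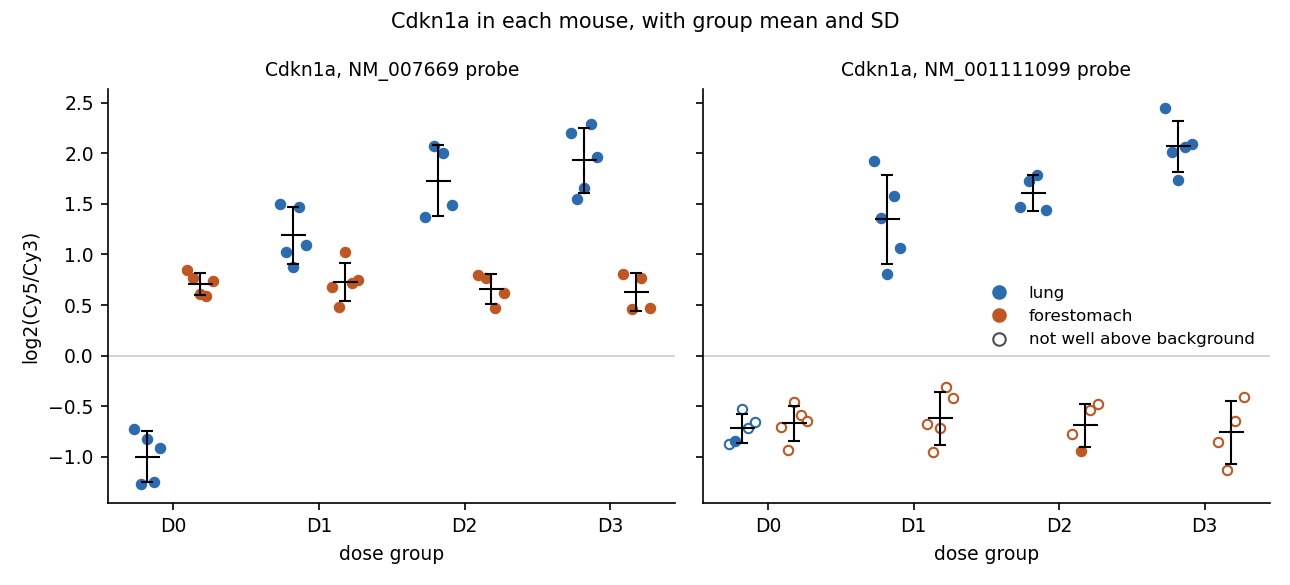
Log2 ratio of Cy5 to Cy3 (y axis) by dose group (x axis) for the Cdkn1a probes of NM_007669 and NM_001111099. Each point is 1 mouse, horizontal lines are group means and bars are SD, and open points are arrays where the Cy5 signal was not well above background. Lung values at D1 to D3 lie above all D0 values, and the forestomach dose groups overlap.

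In forestomach the NM_007669 ratios were 0.85, 0.77, 0.61, 0.59 and 0.74 at D0 and 0.68, 0.48, 1.02, 0.72 and 0.75 at D1. They were 0.80, 0.77, 0.47 and 0.62 at D2 and 0.81, 0.46, 0.77 and 0.47 at D3, where the value of mouse 18 is the mean of arrays at 0.98 and 0.55. The labels do not say whether both arrays came from the same animal's tissue, and with the first or the second alone the D3 difference was -0.03 or -0.14. All dose groups overlapped. The log2 differences from D0 were 0.02 (SE 0.10), -0.05 (SE 0.11) and -0.08 (SE 0.11), each within its error, and they became 0.33, 0.67 and 0.71 under median centring of the arrays, a scaling under which the median of 14573 features detected on all arrays also moved by 0.23, 0.64 and 0.71. None of the 14 features was called in forestomach at any dose. Over all features 0% were called at D1, 0% at D2 and 0% at D3 by limma, with 2402, 1737 and 1986 features at an unadjusted P under 0.05.

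By the NM_007669 probe the tissues therefore began apart and changed order. In untreated mice Cdkn1a NM_007669 was higher in forestomach than in lung in all 5 animals, with lung minus forestomach between -2.04 and -1.43 and a mean of -1.71 ± 0.24 (SD, n = 5). In the same comparison within mice the D1 values ran from -0.14 to 0.82 with a mean of 0.46 ± 0.39 (SD, n = 5). The mean was 1.07 ± 0.43 (SD, n = 4) at D2 and 1.30 ± 0.40 (SD, n = 4) at D3, and every D2 and D3 mouse had the higher ratio in lung. By the NM_001111099 probe, forestomach minus lung at D0 was 0.06 (SE 0.16). There its signal was well above background on 1 of 5 lung arrays and on no forestomach array.

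The lung response at D3 exceeded the forestomach response by 3.01 (SE 0.22) on the log2 scale for NM_007669, and by 2.89 (SE 0.23) for NM_001111099. The latter was well above background on none of the D0, D1 and D3 forestomach arrays and on 1 of 4 at D2, so there lung over forestomach is a bound, at least 3.6-fold at D1 and at least 6.23-fold at D3. Over all features 0.172% were called for a difference between the tissue responses at D3, and 4 of the 14 features were among them. They were the same 4 as in lung. The locus was chosen from earlier results of the same arrays, so nothing is read from that count either.

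The 12 noncoding features belonged to overlapping intervals, chr17:29183003-29217681 (34679 bases, 10 probes) and chr17:29192453-29216073 (23621 bases, 2 probes), in mm9. Such probes were placed on the array to cover intergenic noncoding transcripts, on 1 or both strands of an interval. The letter F or R that ends each name gives the strand: 5 probes were F and 7 were R. The deposited files used here give the interval of each probe and not its place within it.

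A_30_P01027010, on the R strand, had the largest differences of the 12 at D1 and D3. Its lung log2 ratios were -0.17, -0.71, -0.54, -0.40 and -0.42 at D0 and 0.77, 0.42, 0.61, 0.55 and 0.56 at D1. They were 0.66, 0.44, 0.80 and 0.71 at D2 and 1.16, 0.63, 0.61, 1.03 and 0.98 at D3. All treated lungs were above all control lungs, and the D3 range reached above those of D1 and D2. The log2 differences from D0 were 1.03 (SE 0.11), 1.10 (SE 0.12) and 1.33 (SE 0.11), or 2.04-fold, 2.14-fold and 2.51-fold, with the D0 signal well above background on 2 of 5 arrays. In the background-subtracted log ratio they were 2.77, 2.87 and 3.12.

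A_30_P01020960, also R, had lung ratios of -0.29, -0.59, -0.34, -0.11 and -0.65 at D0 and 0.66, 0.23, 0.61, 0.45 and 0.54 at D1. The D2 ratios were 0.60, 1.00, 0.64 and 0.61, and those at D3 were 1.08, 0.69, 0.14, 0.68 and 0.83. The groups did not overlap D0 at any dose, although D3 mouse 18, at 0.14, came close to the highest control. The log2 differences were 0.90 (SE 0.14), 1.11 (SE 0.15) and 1.08 (SE 0.14), or 1.86-fold, 2.16-fold and 2.12-fold, with 2 of 5 control arrays well above background. In the background-subtracted log ratio they were 1.92, 2.21 and 2.16. The within-slide differences lay between 0.56 and 1.01 for D1, between 0.72 and 1.59 for D2 and between 0.49 and 1.30 for D3.

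A smaller difference was seen for A_30_P01022991, whose signal was well above background on every lung array. Its lung ratios were -0.11, -0.33, -0.38, -0.04 and -0.23 at D0, and those of the treated mice lay between 0.01 and 0.34 (D1), 0.12 and 0.34 (D2) and 0.09 and 0.56 (D3). No treated lung overlapped a control lung. The differences of 0.37, 0.47 and 0.58 (SE 0.10 at D3) stayed below the fold change of the calling rule. A_30_P01022528, detected on every lung array as well, had differences of 0.28 (SE 0.08), 0.36 (SE 0.09) and 0.35 (SE 0.08), with overlap at D1 only.

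**Figure D2:**
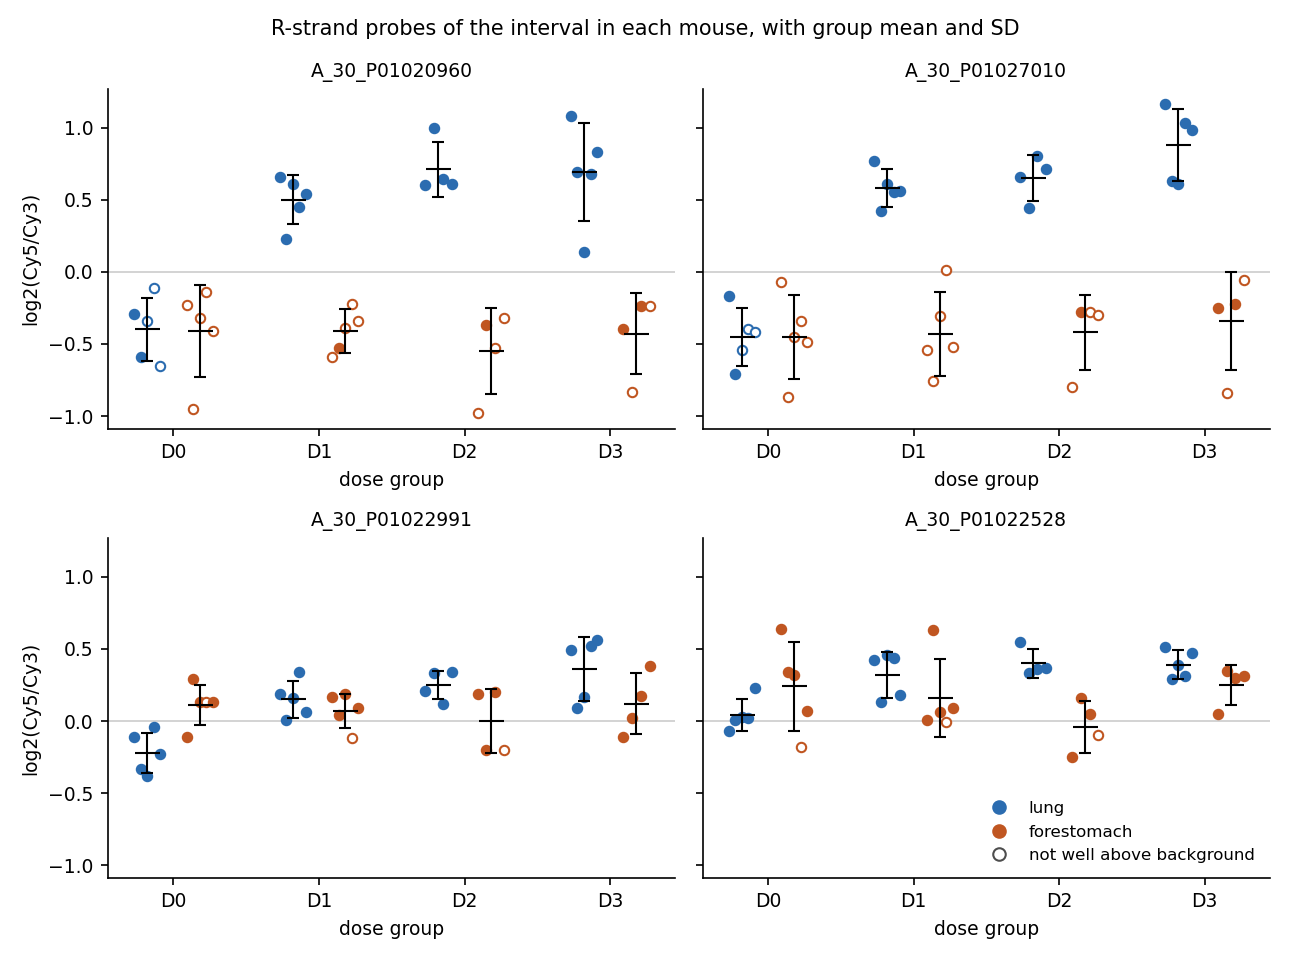
Log2 ratio of Cy5 to Cy3 (y axis) by dose group (x axis) in lung and forestomach for 4 R-strand probes of the longer interval. Points are mice, lines are means with SD, and open points were not well above background. In A_30_P01020960 and A_30_P01027010 the treated lungs lie above 0 and the control lungs and most forestomachs below it.

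Of the remaining R probes, A_30_P01019784 was not well above background on any control lung array. It was detected on 4 of 5, 2 of 4 and 3 of 5 treated lung arrays at D1, D2 and D3. Its measured differences were 0.35, 0.21 and 0.27, and 1.38, 0.64 and 1.01 in the background-subtracted log ratio. The treated and control lungs overlapped at each dose for this probe. A_30_P01021480 differed from D0 by 0.08, 0.12 and 0.19, and A_30_P01025320, detected on 1 of 19 lung arrays, by -0.04, -0.02 and 0.00. In the background-subtracted log ratio A_30_P01025320 was -0.55, -0.33 and -0.36. The F probe A_30_P01020062 was 0.52 at D1 and -0.40 at D3 in that ratio. Near the detection limit this ratio thus moved in either direction. The 5 F probes were detected on at most 1 of 19 lung arrays each, with measured differences between -0.10 and 0.18, so the signal of these probes was at or below what the array could measure in lung.

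**Figure D3:**
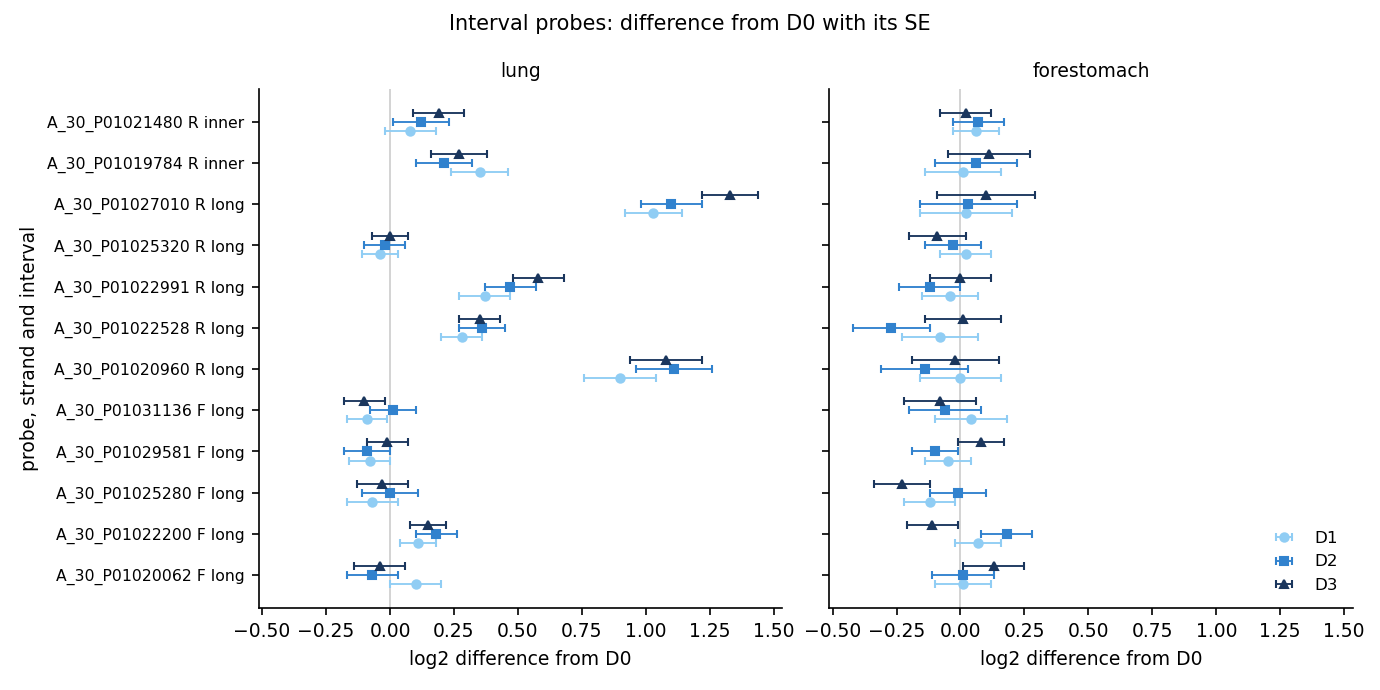
Log2 difference from D0 (x axis, with SE) at D1, D2 and D3 in lung and forestomach for the 12 interval probes (y axis), each with its strand and with long or inner for the longer or the shorter interval. In lung A_30_P01027010 and A_30_P01020960 lie between 0.90 and 1.33 and the F-strand probes between -0.10 and 0.18.

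The lung ratios of 4 R probes ran with those of Cdkn1a NM_007669 over the dose groups. Over 19 mice r was 0.957 for A_30_P01027010, 0.915 for A_30_P01020960, 0.869 for A_30_P01022991 and 0.797 for A_30_P01022528. With dose group means removed it was 0.52, 0.396, 0.443 and 0.0668, so most of the likeness lay between the dose groups. Over the same 19 mice r was 0.626 for A_30_P01022200, an F probe never well above background in lung, and 0.543 for A_30_P01019784. An r of that size was thus reached without a measurable signal. In forestomach A_30_P01027010 and A_30_P01020960 had r of 0.156 and 0.0397 with Cdkn1a over 18 mice, where they were detected on few arrays.

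In forestomach the group means of A_30_P01027010 were -0.45, -0.43, -0.42 and -0.34 from D0 to D3, with no control array, no D1 array, 1 of 4 D2 arrays and 2 of 5 D3 arrays well above background. Those of A_30_P01020960 were -0.41, -0.41, -0.55 and -0.43. At D1, where no forestomach array detected A_30_P01027010 and every lung array did, lung was at least 1.82-fold above forestomach. The lung response at D3 exceeded that of forestomach by 1.23 (SE 0.22) for A_30_P01027010 and 1.10 (SE 0.23) for A_30_P01020960, and by 0.58 (SE 0.15) for A_30_P01022991.

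Counted without a threshold on size, every treated lung was above every control lung for 5 of the 14 features at D1, 7 at D2 and 6 at D3. Over all features with values in every mouse the same held for 0.912% at D1, 1.58% at D2 and 2.05% at D3. At D2 the count took in A_30_P01022200, an F probe never well above background in lung. These comparisons share the control lungs and used the ratios that chose the locus.

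Interval probes as a class were seldom called. Of 16181 interval probes on the array, from 3540 intervals, 8 were called in lung at D1, 16 at D2 and 46 at D3, which were 0.0494%, 0.0989% and 0.284%. Of 4607 interval strands, 3 had at least 2 called probes at D1, 4 at D2 and 11 at D3, the R strand described here among them. These counts include the probes of the locus, which was chosen by the same ratios, so nothing is read from its place among them. No other interval probe lay close to the window: the nearest interval on the higher side, chr17:29374758-29387733 with 8 probes, differed from D0 by -0.15 to 0.55 in lung at D3, and the nearest on the lower side, chr17:27877526-27878437 with 3 probes, by -0.10 to -0.04. Inside the window, the interval probes ran from -0.10 to 1.33 in lung at D3, and those that passed the rule lay at 1.08 and 1.33. The outside probe at 0.55, A_30_P01032951, was well above background on 19 lung arrays, with an FDR P of 0.0106 by limma. It was not called, and its difference was close to the 0.58 of A_30_P01022991 inside the window.

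The protein-coding genes next to Cdkn1a were not part of the choice and could be tested. The 5 with a probe on each side were Bnip5, Pxt1, Kctd20, Stk38 and the splicing factor Srsf3 before it, and Cpne5, Ppil1, BC004004, Pi16 and Mtch1 after it, represented by 17 probes. None was called in either tissue at any dose by limma. Several were dim in lung, where a change could be missed. Bnip5 was well above background on no lung array. Pxt1 and the Cpne5 probes A_55_P2150392 and A_55_P2150398 were so on 4 of 19 each, and the Stk38 probe A_55_P2085731 on 9. In forestomach these probes were detected on 3 to 8 of 19 arrays. In lung 1 probe at D1, 2 at D2 and 1 at D3 had an unadjusted P under 0.05, and the smallest FDR P values were 0.573, 0.589 and 0.29. The lung differences at D3 ran from -0.25 (SE 0.10, FDR P 0.29), for 1 of the 3 Srsf3 probes, to 0.14 (SE 0.08, FDR P 0.542), for Pxt1. The nearest genes, Srsf3 and Cpne5, had differences of -0.25 to 0.03 and 0.01 to 0.06. In forestomach the 17 probes lay between -0.24 and 0.27 at D3, all with an FDR P of 1 and none with an unadjusted P under 0.05.

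**Figure D4:**
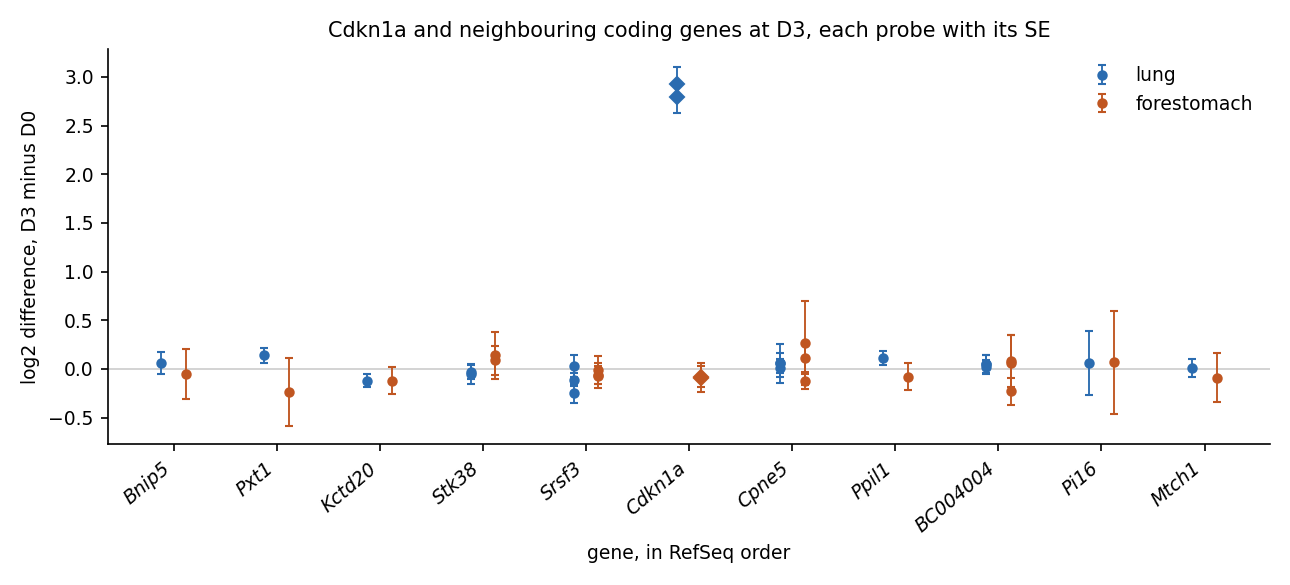
Log2 difference of D3 from D0 (y axis, with SE) for the probes of Cdkn1a and of the 10 neighbouring genes, in their order along chromosome 17 (x axis), in lung and forestomach. In lung the Cdkn1a probes stand at 2.79 and 2.93, and the 17 neighbouring probes, some of them dim, lie between -0.25 and 0.14.

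Among genes that act before Cdkn1a in the damage response, 1 of 7 was called in lung at D3: Mdm2, higher by 0.83 (SE 0.11, FDR P 0.000383). Trp53, which encodes p53 itself, differed by -0.10 (SE 0.16, FDR P 0.891), a sign that changed under median centring, under the scanner software's own log ratio and with scan day as a block. The kinases had differences of 0.21 for Atm (FDR P 0.424), 0.02 for Atr (FDR P 0.963), 0.11 for Chek1 (FDR P 0.7) and 0.12 for Chek2 (FDR P 0.876), and the p53 inhibitor Mdm4 had -0.21 (FDR P 0.696). Activation of p53 and of these kinases works on the protein, which was not measured. Of 12 transcription factors and other regulators known to act on Cdkn1a, Cebpb alone was called, lower by 0.60 on the log2 scale (lung difference -0.60, FDR P 0.00395), and it lost the call in 3 other ways of scaling.

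Other targets of p53 were among the called genes of treated lung. Of 24 target genes other than Cdkn1a, Mdm2 included, 7 were called higher at D1, 12 at D2 and 14 at D3, none lower. Their median differences were 0.48, 0.73 and 0.64, and the median over all features was 0. The list was written with earlier results of these data known and holds the brightest probe of each gene, so its counts and medians are descriptions. At D3 Gdf15, a secreted stress cytokine, rose by 3.63 (SE 0.21, FDR P 1.85e-09), Phlda3, an inhibitor of Akt signalling, by 2.04 (SE 0.11, FDR P 1.41e-09) and Ccng1, which encodes cyclin G1, by 1.95 (SE 0.20, FDR P 1.03e-05). The apoptosis gene Bax rose by 1.43 (FDR P 1.72e-07) and Trp53inp1 by 1.31 (FDR P 7.61e-07). Cdkn1a at 2.93 thus lay below Gdf15 and above the rest of the named targets in log2 difference. Under median centring 4 of the 24 were called in lung at D3, although all 24 were then above 0 with a median of 0.95 in place of 0.64. That scaling also moved the median of the features detected on all arrays by 0.41. In forestomach none of the 24 was called, with 1 at an unadjusted P under 0.05 at D3 and a median of 0.04, which became 0.69 under median centring and 0 in the authors' normalised values.

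Of the 6 other cyclin-dependent kinase inhibitors none was called in lung at any dose by limma, and 3 had an unadjusted P under 0.05 at D3. Their D3 differences in lung were -0.11 for Cdkn1b (FDR P 0.769) and 0.11 for Cdkn1c (FDR P 0.879), which encode the closest relatives of p21. For the INK4 inhibitors they were -0.30 for Cdkn2a (FDR P 0.47), 0.35 for Cdkn2b (FDR P 0.324), 0.44 for Cdkn2c (FDR P 0.136) and 0.32 for Cdkn2d (FDR P 0.12). The signs of Cdkn1b and Cdkn2a changed under median centring, and that of Cdkn1c changed with the scanner software's log ratio.

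Proteins bound or restrained by p21 include cyclins, their kinases and PCNA. In lung 3 of these 11 genes were called higher at D3 and none lower: Ccna2, the S-phase cyclin A2, by 1.17 (SE 0.12, FDR P 5.76e-06), Ccnd1, cyclin D1, by 1.14 (SE 0.14, FDR P 0.000113), and Cdk1, the mitotic kinase, by 0.74 (SE 0.14, FDR P 0.00609). Of 14 proliferation genes that p53 and p21 are known to repress, 6 were called higher at D1, 6 at D2 and 7 at D3, with medians of 0.52, 0.60 and 0.59 and none called lower. The largest were Birc5, an inhibitor of apoptosis expressed in mitosis, at 1.55 (SE 0.14, FDR P 1.7e-06), Rrm2, a subunit of ribonucleotide reductase, at 1.41 (SE 0.14, FDR P 7.19e-06), and Mki67, the Ki-67 antigen, at 1.23 (SE 0.14, FDR P 4.45e-05). Median centring left none of the 14 called, although their median was then 0.98 in place of 0.59. In forestomach all 14 lay below 0 at D3 with a median of -0.30, none was called and 1 had an unadjusted P under 0.05, and under median centring the median was 0.46.

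**Figure D5:**
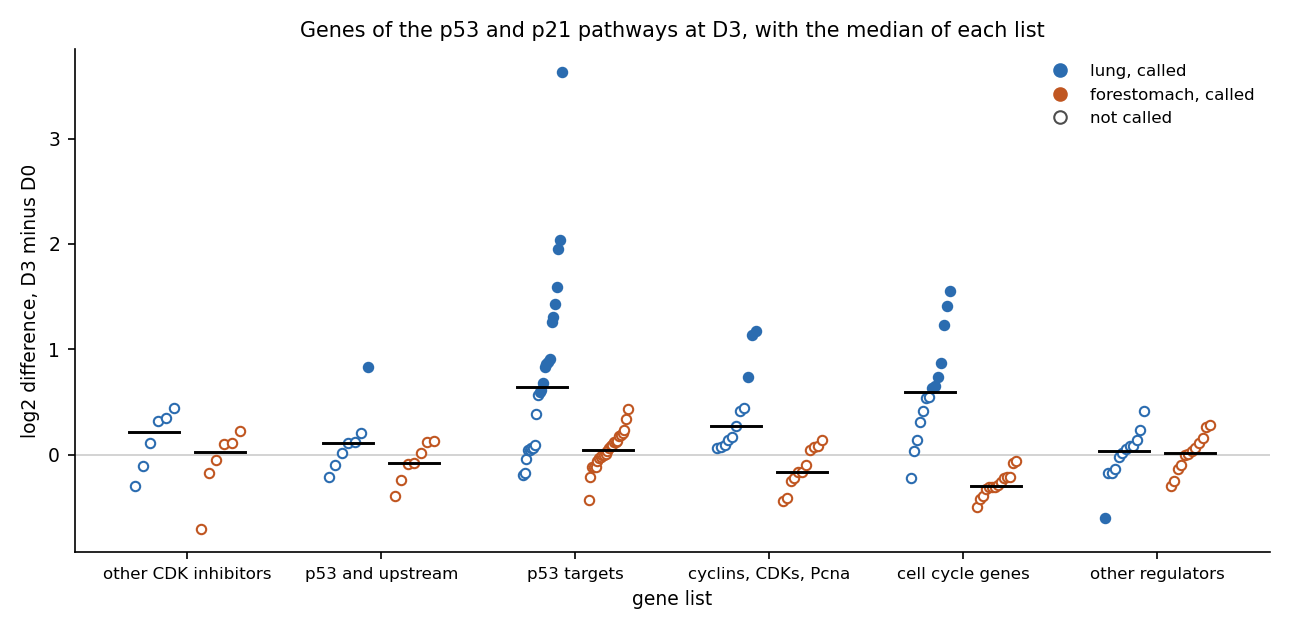
Log2 difference of D3 from D0 (y axis) for each gene (points) of 6 gene lists (x axis) in lung and forestomach under loess normalisation, with filled points for called genes and lines for list medians. In lung the 24 p53 targets have a median of 0.64 and the 14 proliferation genes 0.59. In forestomach the medians are 0.04 and -0.30, and become 0.69 and 0.46 under median centring.

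The difference between the tissue responses at D3 was taken over whole lists, by an interaction contrast in limma. It was called, with the larger response in lung, for 6 of the 24 p53 targets. The same held for 5 of the 14 proliferation genes and 3 of the 11 cyclins, kinases and Pcna. The median differences of these lists were 0.71, 0.96 and 0.36. Over all features 0.172% were called, but these include many dim probes, whereas the lists hold the brightest probe of each gene. The lists were also written with earlier results of these data known, so nothing is read from their counts beside that share. The genes with a named value were picked by rules that favoured a large lung response, so their differences are descriptions: 4.07 (SE 0.42) for Gdf15, 2.16 (SE 0.38) for Phlda3, 1.87 (SE 0.26) for Birc5 and 1.60 (SE 0.22) for Ccna2. Mdm2, at 0.71, and Ccng1, at 1.61, were not called. Under median centring 2 features in all were called for this contrast, against 96 here.

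Among 12887 genes with a detected probe in lung, those whose ratios over 19 mice were most like Cdkn1a NM_007669 were Phlda3 with r = 0.994, Gdf15 with 0.984, Mmrn2, which encodes an extracellular protein of endothelium, with 0.977, and Trp53inp1 with 0.974. Ccng1 at 0.966, Bax and Thyn1 at 0.962 and the carboxylesterase gene Ces2e at 0.96 followed. Within dose groups the likeness was greatest for Phlda3 (0.89) and Mmrn2 (0.843) and lowest for Ces2e (0.329). Mdm2 ranked 39 with 0.906, and Trp53 ranked 9138 with -0.165. The mice share dose groups, and these values are descriptions. In forestomach the highest r over 18 mice and 11442 genes was 0.722, for Tomm22, and Ccng1 had 0.0387.

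Tissue markers were detected in their own tissue: 6 of 6 lung epithelial markers on every lung array and 5 or 6 of 6 squamous markers on every forestomach array. In the other tissue, 1 to 4 lung epithelial markers were detected on forestomach arrays and 1 to 5 squamous markers on lung arrays. The squamous counts of the tissues therefore overlapped. Total RNA came from random pieces of whole tissue, in which a change in the share of a cell type and a change of RNA per cell cannot be told apart. Forestomach samples held varying amounts of glandular stomach RNA. Relative to the D0 mean, the mean of 9 glandular markers lay between -3.44 and 2.83 in D0, -3.72 and 2.08 in D1, -3.15 and 1.78 in D2 and -3.08 and 2.46 in D3, with all 9 higher at D3 by a median of 1.17 and none called. With that mean as a covariate the forestomach Cdkn1a differences moved by less than the spread between mice. In lung none of the 6 epithelial, 6 heart muscle, 5 fat or 6 B lymphocyte markers was called at any dose, and 2 fat markers at D1 and 1 B lymphocyte marker at D2 had an unadjusted P under 0.05. The median difference of the fat markers was -0.50 at D1, against 0.05 and 0.00 at the higher doses, and the heart muscle mean ran from -0.76 to 0.62 at D0 and -0.97 to 1.83 at D3. Their part in the lung Cdkn1a difference was not tested. Between 30.1% and 63.8% of features were well above background in Cy5 on each array.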

How the data were processed

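Tissue RNA (Cy5) and reference RNA (Cy3) were measured on 38 2-colour Agilent arrays, with 19 lung and 18 forestomach mice analysed. Per the file headers, the authors extracted the spot intensity with Agilent Feature Extraction 10.7.3.1 and an mm9 design, and the deposited scanner files hold median signals, detection flags and a log10 ratio of red over green. The authors' deposited value table holds normalised log2 ratios, which correlated with the ratios used here at 0.995 to 0.999 within arrays. It was used as an alternative.

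Here the median intensities of non-control spots, without background subtraction and without outlier-flagged spots, were loess-normalised within arrays, and spots of a probe were averaged. limma 3.58.1 in R 4.3.3 was fitted over 55681 features with 4 dose groups per tissue, and over both tissues for the difference of responses. A feature was called at a Benjamini-Hochberg adjusted P of at most 0.05 with a fold change of at least 1.5. The paper's MAANOVA test was not run. For genes with several probes the brightest was used, except for neighbours, where every probe was. The fit was tested on simulated data. The number of mice limits the precision, and the labels do not say whether the 2 arrays of forestomach mouse 18 came from 1 animal or extract.

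Genes were named by rule: the 3 largest called genes of each pathway list, every gene of lists of at most 7, all neighbours with a probe, the 8 genes most like Cdkn1a, and Trp53, Mdm2, Ccng1 and Gdf15. The members and the lists were chosen with earlier results of these data known. Mouse numbers in the labels tie a lung to a forestomach. Deviations from group means correlated within a mouse at 0.0831 to 0.367 (median 0.232) over 14440 features, above 0.1 in 17 of 18 mice. In 6 of the 18 the lung correlated best with the forestomach of the same mouse number. Both tissues of a mouse lay on the same slide, apart from the second array of mouse 18. A slide effect was therefore not separated from a mouse effect. Alternatives changed background correction, scaling, filters, slide or scan day, mouse as a block, and each mouse left out in turn.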

Additional observations from a re-analysis of the deposited data

Results flagged for a closer look

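Single mice stood far from the others of their dose group in 8 of 112 groups of member values examined, where chance gives about 5% of groups. In lung, A_30_P01020960 was 1.00 in D2 mouse 12, with the others at 0.60 to 0.64, and A_30_P01019784 was 0.45 in D3 mouse 16, with the others at 0.03 to 0.11. In forestomach, A_30_P01019784 was 0.44 in D0 mouse 2 and 0.28 in D3 mouse 17, both above the rest of their groups. A_30_P01022528 was 0.63 in D1 mouse 7, against -0.01 to 0.09. D2 mouse 11 was low for A_30_P01027010, at -0.80, and for A_30_P01021480, at -0.32, and D2 mouse 13 was low for A_30_P01020062, at -0.34. Several of these forestomach groups were near the detection limit. No array of the A_30_P01020062 group was well above background, and 1 was in the A_30_P01027010 group and in each A_30_P01019784 group. In the A_30_P01021480 and A_30_P01022528 groups 3 and 4 arrays were. No Cdkn1a value stood apart in this way.

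The response at D3 was larger in lung than in forestomach, by the limma interaction contrast, in 12 of the 28 named genes, against 0.172% of all features. Many of the 28 were named for a large lung difference or for likeness to Cdkn1a in lung, which favours a larger lung response, so nothing is read from that count. The differences of the log2 responses were 4.07 for Gdf15, 2.16 for Phlda3, 2.08 for Mmrn2, 2.02 for Ces2e, 1.87 for Birc5, 1.62 for Rrm2, 1.60 for Ccna2, 1.44 for Mki67, 1.4 for Bax, 1.23 for Trp53inp1, 1.15 for Cdk1 and 1.09 for Ccnd1. In Birc5, Rrm2, Ccna2, Mki67 and Cdk1 the lung difference was above 0 and the forestomach difference below it, at -0.31, -0.21, -0.44, -0.21 and -0.41, none of which was called in forestomach.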

How the results depend on the processing

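The lung differences of the 4 features that passed the calling rule stayed above 0 in all 27 alternatives run at each dose, and NM_007669 ranged from 2.82 to 3.17 at D3. Median centring, which shifted the median of 14573 always-detected features by 0.37, 0.45 and 0.41 in lung at D1, D2 and D3, changed the following: NM_001111099 in lung at D3 became 2.48, NM_007669 in forestomach 0.33, 0.67 and 0.71, and the tissue difference 2.46 for NM_007669 and 2.38 for NM_001111099. Called features fell from 78, 147 and 356 to 0, 5 and 16 in lung and from 96 to 2 for the tissue difference, and called genes at lung D3 to 4 p53 targets, 0 of the upstream genes, 0 cyclins and kinases, 0 proliferation genes and 0 regulators, with Cdkn1b at 0.36, Cdkn2a at 0.15 and Trp53 at 0.15. With the scanner software's log ratio, NM_001111099 was 3.85, 4.06 and 4.61 in lung and 5.23 for the tissue difference, 160 and 225 features were called in lung at D1 and D2, 0 regulators were, Cdkn1c was -0.11 and Trp53 0.09. The authors' values called 0 regulators and put Atr at -0.02. With slide as a block 130 and 242 features were called in lung at D1 and D2 and 204 for the tissue difference, and Atr was -0.04. With scan day as a block the last count was 198, Atr -0.03 and Trp53 0.01. Forestomach D3 had 3 called features when only D0 and D3 were fitted and 1 when dim features were removed. The cause of these changes was not tested.

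Leaving out 1 mouse gave NM_007669 in lung 2.11 to 2.27, 2.62 to 2.85 and 2.84 to 3.02, and NM_001111099 1.93 to 2.20, 2.27 to 2.39 and 2.70 to 2.87. NM_007669 in forestomach ran from -0.06 to 0.08, -0.09 to 0.02 and -0.15 to -0.03, and the tissue difference from 2.92 to 3.11 and 2.76 to 3.00. Called features in lung ran from 60 to 84, 93 to 203 and 266 to 386, the 93 without D2 mouse 12, in forestomach from 0 to 0, 0 to 1 and 0 to 1, the 1 without D1 mouse 7 or D2 mouse 13, and for the tissue difference from 60 to 114, the 60 without forestomach D3 mouse 16. Of the lists at lung D3, 11 to 14 p53 targets, 6 to 8 proliferation genes, 3 cyclins and kinases, 1 upstream gene and 0 to 1 regulators were called, the 0 without D0 mouse 2 or D3 mouse 20, and 0 neighbours and 0 other inhibitors. Atr ran from -0.02 to 0.04, below 0 without D3 mouse 16, and Cdkn1c from -0.02 to 0.24, below 0 without D0 mouse 3.

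Lung and forestomach are paired by mouse. With the mouse as a fixed or a random replicate block the tissue difference of NM_007669 was 3.01 in both fits and 120 or 139 features were called in place of 96. It moved no Cdkn1a value beyond the spread between mice. Dim control signals limit the folds of NM_001111099 and of the interval probes.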
